A study of Blastobotrys raffinosifermentans with 8 samples.

Results

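The comparison concerns how the transcript state of the yeast *Blastobotrys raffinosifermentans* LS3 at 2 h after a change of medium had moved by 5 h. It rests on 4 one-colour arrays, chosen by their labelled harvest time alone, of the 8 in the series. They are the 5 h and the 2 h array of cells in 1% glucose plus 0.5% gallic acid, and the 5 h and the 2 h array of cells in 1% glucose. The arrays were paired by arm. All cells were of strain LS3, had grown overnight in YMM-glucose-NaNO3 before the shift to YMM-NaNO3, and were shaken at 30 °C, so the glucose control was shifted to new medium as well. The other 4 arrays, harvested at 15 min and 30 min in the same arms, served as the earlier states and as part of the error estimate. No arm had a second array at any time, and the labels do not say whether each harvest was a culture of its own. The p-values thus cover only the spread among the 8 arrays, which may be technical. For the harvest times that spread is how far the arms departed from parallel courses, so it also holds any true difference by arm. The slide position followed the design, with harvest time along one side and arm along the other, and its part cannot be told apart from theirs.

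*B. raffinosifermentans* is a dimorphic yeast known for degrading tannins and gallic acid. Cells moved from an overnight culture into fresh glucose medium take up growth again, and yeasts pass through waves of transcription while they do so. Gallic acid is a hydroxylated aromatic acid that this yeast can use as a carbon source. A gallic acid decarboxylase, aromatic hydroxylases and the ring-opening enzyme catechol-1,2-dioxygenase take part in such degradation. The array was built on locus tags, each covered by up to 13 probes, and the files pair no tag with a product. Tags are therefore described by their chromosome letter, their neighbours in tag order and their course. A tag level is the median log2 intensity of its probes after quantile normalisation, and 6111 of 6159 tags were tested.

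By the share of spots above background and by the upper signal range, the 5 h arrays were the dimmest and the 2 h arrays the brightest of their arms. Between 56.7% and 58.2% of yeast spots were well above background at 5 h, against 74.3% to 81.9% at 2 h. The 75th percentile of the processed signal was 57.4 with gallic acid and 56.6 in glucose at 5 h, against 92.4 with gallic acid and 119 in glucose at 2 h. At 30 min it was 72.3 with gallic acid and 68.9 in glucose. Quantile normalisation removes such a difference in overall signal, and counts with scaling to the spike-in transcripts instead are given beside it. Downstream probes of a tag exceeded its upstream probes most at 2 h, by a median of 0.09 with gallic acid and 0.08 in glucose (log2). At 5 h these medians were 0.04 and 0.03.

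Many tags differed between 5 h and 2 h, and they did so alike in both arms. At 5 h 1193 tags were higher than at 2 h (19.5% of those tested) and 1064 were lower (17.4%), together 2257 (36.9%), by limma with Benjamini-Hochberg adjusted p below 0.05. Each of these had the same sign in both arms, which the test's use of both arms favours. The median difference was 0.48 on the log2 scale among the higher tags and -0.59 among the lower. Large steps downward were more numerous, with 105 higher and 263 lower tags at 1 or more in size and 17 higher and 43 lower at 2 or more, while 10 higher and 8 lower tags reached 3. At an unadjusted p below 0.05 there were 1612 higher and 1271 lower tags. Without any 1 of the 4 arrays, 483 to 535 tags were higher and 580 to 692 lower.

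Over all tags the 5 h minus 2 h difference correlated between the arms with Pearson's r = 0.92 and Spearman's rho = 0.87 (6111 tags, which are not independent, and 2 arrays of each arm on 1 slide). The plot of the change in both arms shows these values along the diagonal. The tags higher at 5 h lay at a median percentile of 76.4 of all levels with gallic acid and 76.6 in glucose at 5 h, against 58.5 with gallic acid and 57.9 in glucose at 2 h. The tags lower at 5 h lay at 43.7 with gallic acid and 43.6 in glucose at 5 h, against 74.2 with gallic acid and 75.6 in glucose at 2 h. Of these lower tags 412 (38.7%) had under 50% of their probes well above background on both 5 h arrays, against 0 on both 2 h arrays. For all tested tags the numbers were 2142 (35.1%) at 5 h and 649 (10.6%) at 2 h.

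**Figure D1:**
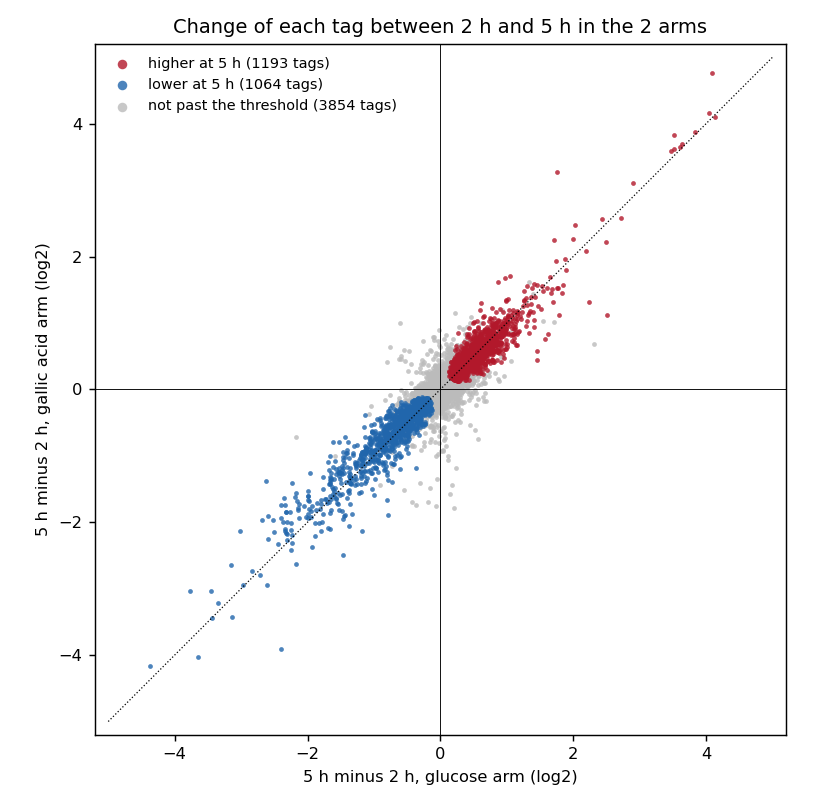
Each point is 1 tag, with the 5 h minus 2 h difference in the glucose arm on the x axis and in the gallic acid arm on the y axis, both on the log2 scale. Red tags (1193) were higher and blue tags (1064) lower at 5 h by limma, and the dotted line marks equal change. Of the 32 tags whose change differed by arm by size, none of which passed the interaction test, 21 lie below the dotted line and 11 above it.

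The direction of the counts depended on the scaling. With levels scaled to the E1A spike-in transcripts, which are added in equal amount to each labelling reaction, 96 tags were higher and 1790 lower at 5 h, so that 5.09% of the called tags were higher, against 52.9% with quantile normalisation. That scaling shifted the median of all tags to -0.48 with gallic acid and -0.11 in glucose, against 0.06 with gallic acid and 0.05 in glucose with quantile normalisation. Directions below are therefore relative to the bulk of the tags on each array. No tag passed in opposite directions under these scalings.

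The largest rises lifted tags to the top of the scale. ARAD1D17358g, on chromosome D, was at 12.04 with gallic acid and 11.44 in glucose at 5 h, against 7.28 with gallic acid and 7.34 in glucose at 2 h. Both 5 h arrays lay far above all 6 earlier ones, whose values were between 7.28 and 8.19. The rise was 4.43 on the log2 scale (SE 0.21, 2 pairs, 21.5-fold, adjusted p = 0.000413). ARAD1D08052g, also on chromosome D, was at 10.23 with gallic acid and 10.21 in glucose at 5 h, against 6.13 with gallic acid and 6.09 in glucose at 2 h. It stood at percentile 99.1 of all tags in both arms at 5 h, against 26.0 with gallic acid and 19.7 in glucose at 2 h. Its rise was 4.11 (SE 0.08, 17.3-fold, adjusted p = 0.000139). The rise was 0.97 over its upstream probes alone and 6.84 when the processed signal was divided by each array's 75th percentile, so its size is uncertain. The tags on either side of it in tag order were higher by 0.30 and 0.59 (adjusted p = 0.0140 and 0.00164).

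The largest falls were of tags that had their highest level at 2 h. ARAD1D12606g was at 6.98 with gallic acid and 6.80 in glucose at 5 h, against 11.14 with gallic acid and 11.17 in glucose at 2 h. It fell by 4.26 on the log2 scale (SE 0.08, 19.2-fold, adjusted p = 0.000139). At 15 min and 30 min it lay between 6.66 and 7.08, so both 5 h arrays were back among the earliest. Its brightest probe alone fell by 0.30 (adjusted p = 0.220). The neighbours in tag order were lower as well, with differences of -2.43 and -1.51 (adjusted p = 0.000826 and 0.00132). ARAD1B17248g, on chromosome B, was at 7.17 with gallic acid and 7.06 in glucose at 5 h, against 11.20 with gallic acid and 10.71 in glucose at 2 h, and fell by 3.84 (SE 0.17, 14.3-fold, adjusted p = 0.000359). It ended below its 30 min levels of 8.59 and 7.80, with a difference of -1.08 over both arms (adjusted p = 0.0250). Its neighbours differed by -0.18 and -0.14 and did not pass.

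**Figure D2:**
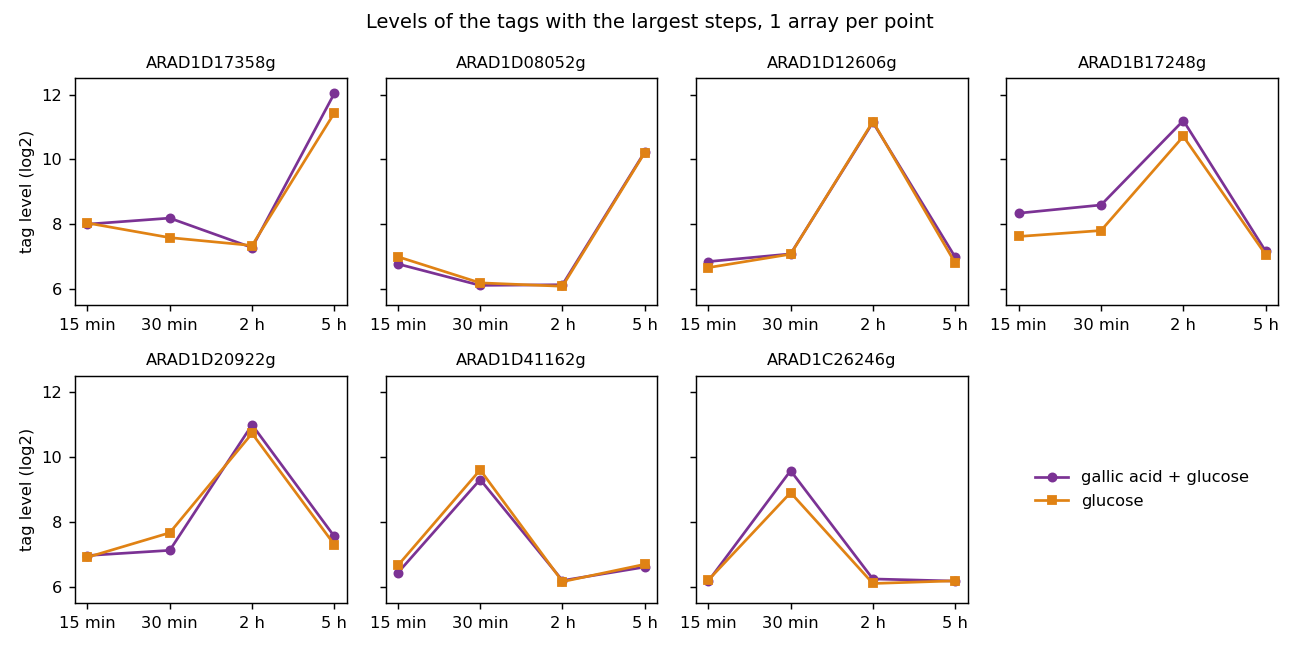
Tag level (log2 intensity) at the 4 harvest times in gallic acid plus glucose (circles) and glucose (squares), 1 array per point, for the tags with the largest differences between 5 h and 2 h or between 2 h and 30 min. ARAD1D17358g and ARAD1D08052g stood high at 5 h only, ARAD1D12606g and ARAD1D20922g at 2 h only, and ARAD1D41162g and ARAD1C26246g at 30 min only. ARAD1B17248g was highest at 2 h in both arms.

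Tags were then compared with the next tag in order, since tag numbers follow the chromosomes. Of 6041 neighbouring pairs, 899 had both tags past the threshold, and 457 of these moved the same way. Among pairs in which both tags changed by 1 or more in size, 25 of 31 moved the same way. Over all tags 36.9% passed, and 105 higher and 263 lower ones reached 1 in size, so unrelated tags would also often pair the same way. The share to be had without any link between neighbours was not worked out. The longest runs of neighbours that moved the same way held 5 tags in each direction. By chromosome, 18.7% to 20.7% of the tags of chromosomes A to D were higher and 16.1% to 18.5% lower, close to the 19.5% and 17.4% over all tags. Of the 76 tested tags at the ends of these chromosomes (the 10 first and 10 last in tag order), 9 were higher (11.8%) and 5 lower (6.58%). These end tags were dim, with median levels of 6.061 to 6.125 at 5 h and 2 h, against 6.418 to 6.433 over all tags. The offset of the background correction shrinks differences of dim tags, and its part in these shares was not tested.

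The second question was how far the state at 2 h was undone by 5 h. The steps up to 2 h and after it share the 2 h arrays, so tags were chosen in one arm (2 h minus 30 min of at least 1 in size, with at least 80% of probes of that sign) and measured in the other. No test goes with these values. The 2 h arrays were the brightest of both arms, and measuring in the other arm does not remove that shared pattern. Its part in the values below was not tested. The step up to 2 h gave 979 higher tags (16% of those tested) and 938 lower tags (15.3%) by the same fit. Between 5 h and 30 min the fit gave 318 higher (5.2%) and 312 lower tags (5.11%).

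The rises by 2 h were gone at 5 h. With gallic acid, the 241 tags chosen in glucose stood at a median of -0.03 relative to their 30 min level at 5 h, against 1.30 at 2 h, and 231 of them moved down between 2 h and 5 h. In glucose, the 233 tags chosen with gallic acid stood at -0.08 at 5 h, against 1.35 at 2 h, and 222 moved down. For comparison, 41.0% of all tags were lower at 5 h than at 2 h with gallic acid and 41.8% in glucose. The share of the rise that was undone was 102% with gallic acid and 106% in glucose, or 104% ± 2.8 (SD over the 2 arms). At 5 h 189 of the 241 tags (78.4%) and 178 of the 233 (76.4%) lay within 0.5 of their 30 min level, against 87.4% of all tags with gallic acid and 89.9% in glucose. The median of their differences between 30 min and 15 min was 0.00 with gallic acid and -0.01 in glucose.

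The falls by 2 h were undone in part. With gallic acid, the 145 tags chosen in glucose stood at a median of -0.79 relative to their 30 min level at 5 h, against -1.26 at 2 h, and 122 moved up. In glucose, the 189 tags chosen with gallic acid stood at -0.58 at 5 h, against -1.04 at 2 h, and 166 moved up. Of all tags, 59% were higher at 5 h than at 2 h with gallic acid and 58.2% in glucose. The undone share was 37.6% with gallic acid and 44.4% in glucose, or 41.0% ± 4.8 (SD over the 2 arms). Within 0.5 of the 30 min level lay 51 of 145 tags (35.2%) with gallic acid and 76 of 189 (40.2%) in glucose.

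For the falls the early level itself was not settled. At 30 min these tags stood above their 15 min level by a median of 0.89 with gallic acid and 0.45 in glucose, and 65 of the 145 (44.8%) and 52 of the 189 (27.5%) stood above it by 1 or more. Against 15 min, their 5 h levels differed by medians of 0.18 with gallic acid and -0.01 in glucose. For these 65 and 52 tags the fall by 2 h began from a raised 30 min level. With 15 min as the starting level for choosing and measuring, 49.6% of the fall and 97.1% of the rise was undone. The undone share of the fall depended on other choices too. It was 72.6% for tags chosen at 0.5 or more in size, 24.7% at 1.5 or more, and -6.25% with spike-in scaling, where the median at 5 h lay below that at 2 h. The share of the rise lay between 97.1% and 110.3% under all alternatives run.

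**Figure D3:**
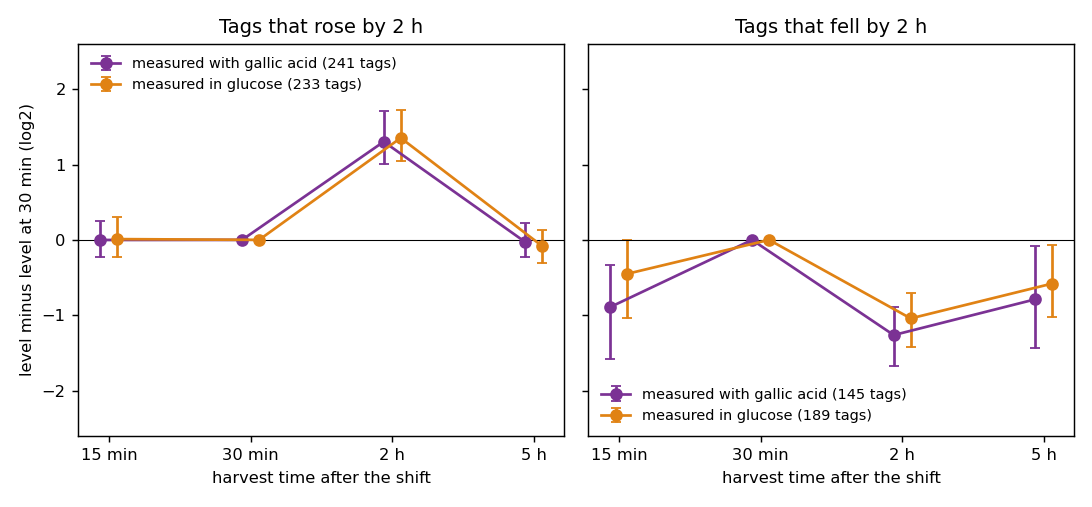
Median level relative to 30 min (log2, y axis) of tags that rose (left) or fell (right) by at least 1 between 30 min and 2 h, at the 4 harvest times on the x axis, with bars from the lower to the upper quartile over tags. Tags were chosen in one arm and are drawn as measured in the other (gallic acid circles in purple, glucose in orange). The risen tags stood at -0.03 and -0.08 at 5 h, against 1.30 and 1.35 at 2 h, whereas the fallen tags stayed at -0.79 and -0.58, near the 15 min level.

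Over all tags, the 5 h arrays lay nearer to 30 min than to 2 h. The standard deviation over tags of 5 h minus 30 min was 0.43 with gallic acid and 0.39 in glucose, below that of 5 h minus 2 h (0.55 with gallic acid and 0.55 in glucose) and of 2 h minus 30 min (0.53 and 0.52). Of the 100 tags with the highest level at 5 h, 61 were among the 100 highest at 30 min and 59 among those at 2 h with gallic acid, and in glucose the numbers were 68 and 53.

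Single tags show both courses. ARAD1D20922g, on chromosome D, was at 7.55 with gallic acid and 7.30 in glucose at 5 h, against 11.00 with gallic acid and 10.73 in glucose at 2 h. It had been at 7.12 with gallic acid and 7.67 in glucose at 30 min, so that 5 h lay above 30 min with gallic acid and below it in glucose. After a rise by 3.47 to 2 h it fell by 3.44 on the log2 scale (SE 0.21, 10.9-fold, adjusted p = 0.000713), and the mean difference of 5 h from 30 min over both arms was 0.03 (adjusted p = 0.954). The levels of ARAD1D12606g, described above, differed by -0.19 between 5 h and 30 min (adjusted p = 0.209). The tags with the largest falls by 2 h were peaks of 30 min. ARAD1D41162g had been at 9.31 with gallic acid and 9.61 in glucose at 30 min. It was at 6.61 with gallic acid and 6.69 in glucose at 5 h, against 6.19 with gallic acid and 6.16 in glucose at 2 h, a small rise of 0.48 (SE 0.09, adjusted p = 0.0149) that lost its call when any of 3 of the 4 arrays was left out (adjusted p of 0.0768 to 0.0998). It had been at 6.43 and 6.66 at 15 min, near its 5 h levels. ARAD1C26246g, on chromosome C, had been at 9.58 and 8.90 at 30 min and was at 6.17 with gallic acid and 6.18 in glucose at 5 h, against 6.24 with gallic acid and 6.10 in glucose at 2 h. The difference of 0.01 (SE 0.19) did not pass, and only 40% of the probes with gallic acid and 30% in glucose cleared the background at 5 h, against 90% and 70% at 2 h.

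Few tags went on in the direction they had taken by 2 h. Counting tags past the threshold whose 2 h minus 30 min difference was at least 0.5 in size and of the same sign in both arms gave 10, of which 4 were higher and 6 lower at 5 h. Both steps use the 2 h arrays, so this count is a description. The number moved with the processing, with 33 at no offset, 47 with the 75th percentile and 25 with the brightest probe, and of these 10, 8 and 4 were among the 10.

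ARAD1C43978g, on chromosome C, was at 10.40 with gallic acid and 10.83 in glucose at 5 h, against 9.35 with gallic acid and 9.43 in glucose at 2 h, having been at 8.11 and 8.48 at 30 min. At 15 min it had been at 8.92 and 9.38, so much of its climb by 2 h made up a dip at 30 min. It rose by 1.23 between 2 h and 5 h (SE 0.11, 2.34-fold, adjusted p = 0.00142). The next tag in order was also among the 4, with a rise of 0.78 (adjusted p = 0.0108). It had dipped at 30 min too, and stood at 7.52 with gallic acid and 7.55 in glucose at 2 h, against 7.83 and 7.60 at 15 min. ARAD1D25300g was at 8.09 with gallic acid and 8.31 in glucose at 5 h, against 7.58 with gallic acid and 7.59 in glucose at 2 h, a rise of 0.61 (SE 0.09, adjusted p = 0.00561) that stood at -0.03 with spike-in scaling. It had been at 8.31 and 8.23 at 15 min, so its climb after 30 min led back to the first level. At 5 h 3 of the 4 rising tags stood above all 6 earlier arrays.

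All 6 falling tags had their highest level at 30 min in both arms, and 4 of them were within 0.5 of their 15 min level in both arms at 5 h. ARAD1C36256g, on chromosome C, was at 8.43 with gallic acid and 8.09 in glucose at 5 h, against 9.51 with gallic acid and 9.68 in glucose at 2 h. It fell by 1.33 (SE 0.21, 2.52-fold, adjusted p = 0.00814), but remained above its 15 min levels of 6.51 and 7.11, and without either 2 h array it did not pass (adjusted p = 0.0586 and 0.0566). With the brightest probe it differed by -0.31 (adjusted p = 0.0879) and with the 75th percentile by -0.82 (adjusted p = 0.0969), and neither passed. ARAD1C03432g was at 6.57 in both arms at 5 h, against 7.09 with gallic acid and 7.08 in glucose at 2 h. Its fall by 0.52 (SE 0.13, adjusted p = 0.0351) did not pass without any 1 of the 4 arrays (adjusted p of 0.116 to 0.182).

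A group of 17 tags changed late only, with levels at 15 min, 30 min and 2 h that spanned less than 0.5 in each arm, and with a difference of 1 or more past the threshold at 5 h. All 17 were higher at 5 h, and 0 tags were lower. Their rises were between 1.00 and 3.68, with a median of 1.57, and 6 were above 2. At 5 h they lay between 7.25 and 11.63 with gallic acid and between 7.33 and 11.40 in glucose, against 5.98 to 7.98 with gallic acid and 6.04 to 7.79 in glucose at 2 h. On both 5 h arrays at least 80% of the probes of each were well above background. By chromosome, 9 of the 17 were on D, 5 on A, 2 on C and 1 on B, where the tested tags numbered 2168 on D, 856 on A, 1976 on C and 1045 on B. Among the 17, 2 pairs were direct neighbours.

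ARAD1D08228g, on chromosome D, was at 9.96 with gallic acid and 9.62 in glucose at 5 h, against 6.13 with gallic acid and 6.10 in glucose at 2 h. Its rise of 3.68 (SE 0.11, 12.8-fold, adjusted p = 0.000179) brought it to percentile 98.6 with gallic acid and 97.9 in glucose at 5 h, against 25.4 with gallic acid and 21.4 in glucose at 2 h. With the brightest probe the rise was 1.36 and with the 75th percentile 6.34. ARAD1D12804g was at 11.63 with gallic acid and 11.40 in glucose at 5 h, against 7.98 with gallic acid and 7.79 in glucose at 2 h. It rose by 3.63 (SE 0.12, 12.4-fold, adjusted p = 0.000185) and stood at percentile 99.9 with gallic acid and 99.8 in glucose at 5 h, with all probes well above background on all 8 arrays. Which tags count as flat before 2 h depended on the treatment of dim signal. Of the 17, 2 were among the 11 found with no offset and 1 among the 21 found with the 75th percentile, where 3 and 10 late tags were lower.

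**Figure D4:**
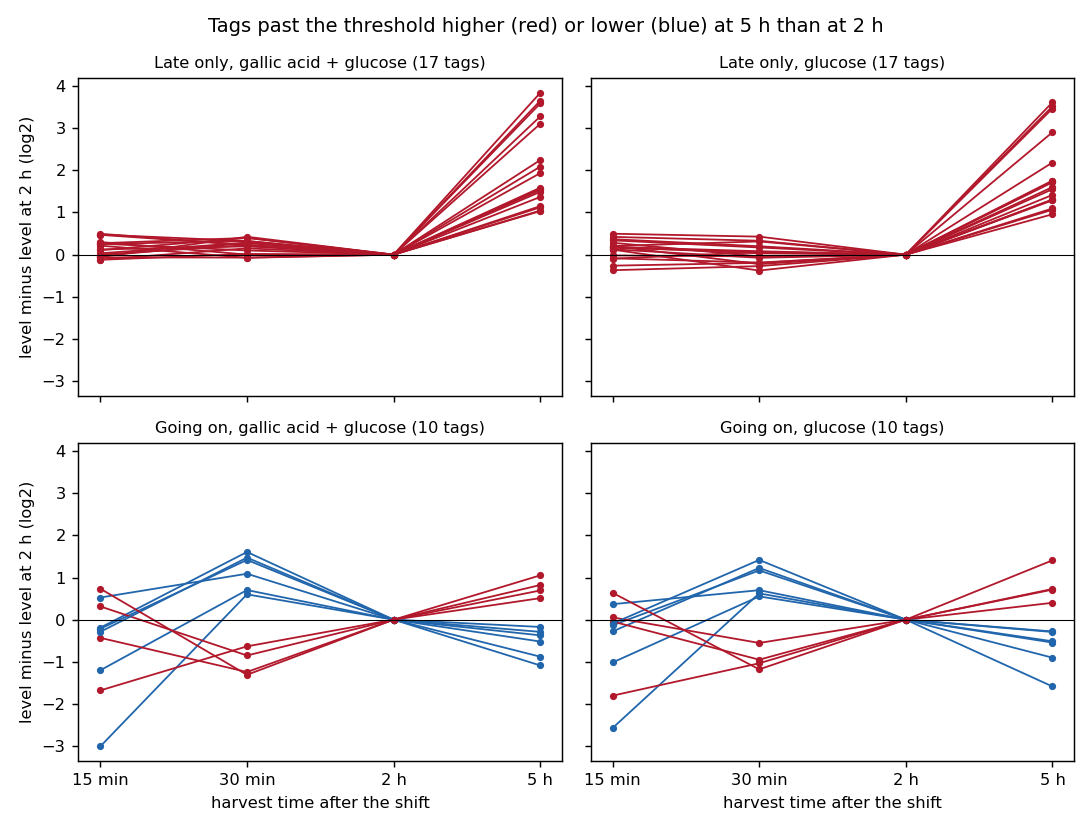
Level relative to 2 h (log2, y axis) at the 4 harvest times for the 17 tags that changed late only (top) and the 10 that went on changing (bottom), with gallic acid plus glucose on the left and glucose on the right, 1 line per tag. Red lines were higher and blue lines lower at 5 h than at 2 h. The late tags are flat until 2 h and all rise, and the blue tags below are highest at 30 min.

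The third question was which tags changed differently in the 2 arms. The interaction term of limma called 0 of 6111 tags (0%), with 124 at an unadjusted p below 0.05 and a lowest adjusted p of 0.9997. These 124 are a smaller share than the 0.05 of tests that would fall there without any difference by arm. With spike-in scaling the interaction term called 11, under the altered error estimate of that fit. This fit had 2 residual degrees of freedom, and a p that misses the threshold does not show that the arms changed alike. By size alone, 32 tags (0.524%) had changes that differed by 1 or more between arms with at least 80% of probes of that sign. There were 139 with no offset, 428 with the 75th percentile and 174 with the brightest probe.

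In most of these tags the arms differed at 2 h and had come together by 5 h. The change was more negative with gallic acid in 21 tags (0.344%), all with at least 4 probes. Their median change was -1.43 with gallic acid and 0.11 in glucose. The gallic acid arm stood above glucose by a median of 0.09 at 5 h, against 1.40 at 2 h, and 16 of the 21 were higher with gallic acid by 1 or more at 2 h. At 5 h 6 of the 21 still differed by 1 or more. Over all tags the distance between the arms was smaller at 5 h than at 2 h, with a standard deviation of gallic acid minus glucose of 0.18 at 5 h, against 0.24 at 2 h. There were 27 tags at 1 or more in size at 5 h, against 51 at 2 h. At 5 h 2142 tags had under 50% of their probes well above background in both arms, against 649 at 2 h. The offset of 50 shrinks differences of such dim tags towards 0, and its part in the smaller distance was not tested.

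ARAD1C00462g, on chromosome C, was at 6.86 with gallic acid and 6.83 in glucose at 5 h, against 8.64 with gallic acid and 6.63 in glucose at 2 h. Only the gallic acid array of 2 h stood apart, as the other 7 arrays lay between 6.37 and 6.88. Its change with gallic acid minus that in glucose was -1.99 (SE 0.74, unadjusted p = 0.0554, adjusted p = 0.9997). The next tag in order changed by -1.42 with gallic acid and by -2.23 in glucose. ARAD1A19800g, on chromosome A, was at 7.69 with gallic acid and 6.05 in glucose at 5 h, against 9.27 with gallic acid and 5.91 in glucose at 2 h. It had not come together by 5 h, and in glucose 0% of the probes cleared the background at 5 h and 10% at 2 h, against 100% with gallic acid at both times. The difference of its change was -1.72 (SE 1.30, unadjusted p = 0.257, adjusted p = 0.9997). The glucose changes of both tags, 0.20 and 0.14, ran against the falls with gallic acid. Over both arms ARAD1C00462g differed by -0.79 (adjusted p = 0.310), and passed without the 2 h array in glucose (-1.79, adjusted p = 0.00457).

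The change was more positive with gallic acid in 11 tags (0.18%), of which 8 were putative mitochondrial tags and 3 were on chromosomes A to D. Each of these 8 had 1 probe, so the rule on probes of the same sign was met without a further probe, and only the other 3 had at least 4 probes. ARAD1D25542g, 1 of the late tags above, was at 9.74 with gallic acid and 8.62 in glucose at 5 h, against 6.46 with gallic acid and 6.86 in glucose at 2 h. Both arms rose, by 3.28 with gallic acid and 1.76 in glucose, and the difference of 1.52 (SE 0.20, unadjusted p = 0.00161, adjusted p = 0.9997) held in all 9 probes. The tag after it in order, also a late tag, rose by 1.56 with gallic acid and 1.31 in glucose. ARAD1C38082g was at 8.11 with gallic acid and 8.53 in glucose at 5 h, against 8.84 with gallic acid and 10.70 in glucose at 2 h. Here the glucose array of 2 h stood apart from the other 7, which lay between 7.73 and 8.84. The change was 1.45 more positive with gallic acid (SE 1.19, unadjusted p = 0.292, adjusted p = 0.9997). Over both arms it differed by -1.45 (adjusted p = 0.129), and by -2.43 without the 2 h array with gallic acid (adjusted p = 0.0344).

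The tags with the prefix ARAD1M, 36 on the array and designed as putative mitochondrial genes, had values that differed by arm. Of the 35 tested, 2 were higher at 5 h (5.71%, against 19.5% of all tags) and 0 lower (0%, against 17.4%). With gallic acid all 35 had positive values between 0.07 and 1.00, with a median of 0.45, whereas in glucose the values ran between -0.80 and 0.62, with a median of -0.11 and 16 above 0. Over all tags 59% were above 0 with gallic acid and 58.2% in glucose. The median level of the 35 tags was 6.98 with gallic acid and 6.95 in glucose at 5 h, against 6.51 with gallic acid and 7.10 in glucose at 2 h. The arms were thus apart at 2 h and close at 5 h. Earlier the gallic acid median was also the lower one, at 6.69 against 7.19 in glucose at 30 min and 6.75 against 6.94 at 15 min. Most of the list rests on 1 to 3 probes. Among the 12 tags with at least 4 probes the medians were 0.43 with gallic acid (12 above 0) and 0.08 in glucose (8 above 0). The median with gallic acid was 0.85 with no offset and 1.06 with the 75th percentile. With spike-in scaling the medians were -0.25 with gallic acid and -0.41 in glucose, and 2 tags were above 0 with gallic acid. The list was chosen in an earlier analysis of these arrays, after its values were seen, and has no test here.

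**Figure D5:**
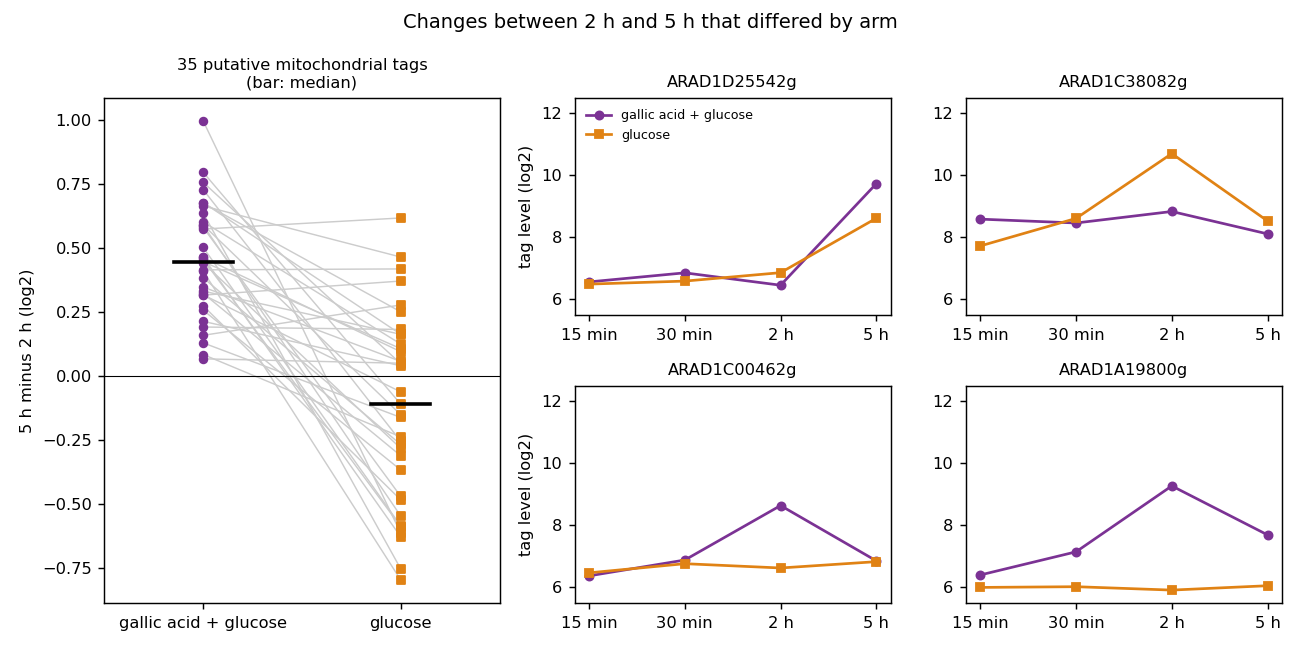
Left, 5 h minus 2 h (log2) of the 35 putative mitochondrial tags with gallic acid plus glucose and in glucose, with a line joining each tag and a bar at the median (0.45 and -0.11). Right, log2 levels at the 4 harvest times of the tags with the largest differences of the change between arms, 1 array per point. The gallic acid array of 2 h stands high in ARAD1C00462g and ARAD1A19800g, and the glucose array of 2 h in ARAD1C38082g.

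Of the tags to which the study's text gives a function in the breakdown of aromatic acids, 8 were tested. ARAD1D18458g, which the study assigns to *ACDO1* and thus to catechol-1,2-dioxygenase, was at 6.09 with gallic acid and 6.10 in glucose at 5 h, against 7.06 with gallic acid and 7.08 in glucose at 2 h. The arms did not separate at either time. The study reports that gallic acid induces *ACDO1*, by PCR in cells with gallic acid as the only carbon source, and cites this array series for it as well. The PCR differed from these arrays in several ways. It used another strain, less gallic acid and no glucose, and found the highest expression at a time later than any array here. The values above, from the cited series, show no higher level with gallic acid at 5 h or 2 h. ARAD1D18458g fell by 0.98 on the log2 scale (SE 0.08, 1.97-fold, adjusted p = 0.00116), and the change differed by 0.01 between arms (SE 0.18). In both arms 10% of the probes cleared the background at 5 h, against 100% at 2 h, so the fall reached the background and its size depends on how that is treated. With the 75th percentile it was -2.95. The 10 probes begin between bases 815 and 1618, and the study's reading frame for the gene ends within that range. How many of the probes lie past its end was not worked out, so the tag median may not measure the reading frame alone. ARAD1D18502g, a phenol hydroxylase tag, was at 8.82 with gallic acid and 8.65 in glucose at 5 h, against 8.24 with gallic acid and 8.13 in glucose at 2 h. The difference of 0.55 (SE 0.18, adjusted p = 0.0718) did not pass.

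Of the 7 candidate hydroxylases named by the study, ARAD1A17402g came from a sequence search. The others came from its arrays of cells given protocatechuic acid, another hydroxylated aromatic acid, and not from the gallic acid arrays used here. The study proposes them as candidates for turning protocatechuic acid into hydroxyquinol. Among the 7, 6 were tested, and 2 were higher (33.3%, against 19.5% of all tags) and 1 lower (16.7%, against 17.4%) at 5 h. ARAD1A17402g was 1 of the 2 higher tags. ARAD1C03498g was at 6.82 with gallic acid and 6.91 in glucose at 5 h, against 7.81 with gallic acid and 8.57 in glucose at 2 h. The fall was by 1.33 (SE 0.31, 2.51-fold, adjusted p = 0.0269), larger in value in glucose (1.66) than with gallic acid (1.00), and it did not pass without either glucose array or without the 5 h array with gallic acid (adjusted p of 0.0828 to 0.139). ARAD1D27984g was at 7.91 with gallic acid and 8.05 in glucose at 5 h, against 7.36 with gallic acid and 7.16 in glucose at 2 h. It rose by 0.72 (SE 0.10, 1.65-fold, adjusted p = 0.00538), and its mean difference from 30 min over both arms was 0.03, at 30 min levels of 8.00 with gallic acid and 7.90 in glucose. With spike-in scaling it differed by 0.08 (adjusted p = 0.777). ARAD1A17402g was higher by 0.17 (SE 0.05, adjusted p = 0.0397) at a level where no more than 10% of the probes cleared the background at 5 h or 2 h, and did not pass without any 1 of the 4 arrays (adjusted p of 0.139 to 0.199). ARAD1C00330g was at 6.58 with gallic acid and 5.90 in glucose at 5 h, against 6.69 with gallic acid and 5.89 in glucose at 2 h. It stayed apart by arm at both times, with no more than 20% of the probes clear of the background in glucose and at least 90% with gallic acid, and changed by -0.05 (SE 0.16, adjusted p = 0.830). ARAD1D18392g and ARAD1C08558g differed by 0.02 (SE 0.12) and -0.05 (SE 0.05) between 5 h and 2 h and did not pass.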

How the data were processed

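Total RNA of 8 shake-flask samples was hybridised to Agilent one-colour arrays. The spot intensity columns of the deposited scanner files come from Agilent Feature Extraction 11.5.1.1, which the authors ran. Those used here are the median pixel intensity of spot and local background, the processed signal and, as other values, flags of 0 or 1 that the authors deposited. A deposited log2 table of the same arrays had been made by the authors in limma with normexp and quantile normalisation. Its offset is not given in the sources used here.

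limma 3.58.1 in R 4.3.3 served for all levels and tests. After normexp correction of all spots at an offset of 50, control spots (1439 of 62976) were removed, and arrays were quantile-normalised and log2-transformed. The offset shrinks differences of dim tags towards 0. Spots marked as outliers (0 to 6 per array) were left out, no yeast spot was saturated, and the 56311 probes were summarised by their median for 6159 tags. A further probe naming no tag was left out. A tag was tested when a probe of it was flagged well above background on 2 or more arrays. The number of arrays limits the precision.

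limma was fitted to all 8 arrays with harvest time and arm (3 residual degrees of freedom) and Benjamini-Hochberg adjustment. The arm is the block that pairs 5 h with 2 h. As a check of this pairing, the difference between arms at 5 h correlated with that at 2 h across tags with r = 0.51. The difference of the change between arms was 1 further term. The procedure was tested on simulated data.

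Named tags were those to which the study gives a function and, among tags with at least 4 probes, up to 2 in each direction with the largest change between 5 h and 2 h, the largest change by 2 h, the largest continued or late change, and the largest difference by arm. Members and lists were chosen with earlier results of these data known. Alternatives were offset 0, the processed signal minus its 75th percentile, median and spike-in scaling, the authors' table, the mean, brightest, upstream or downstream probes, no or a strict filter, Bonferroni adjustment, a trended robust prior, no block, the 4 arrays alone, each of them left out, another starting time and other sizes. Chosen after seeing the data were leaving out probes marked with X and the 15 min arrays. Genes without a tested tag, the gallic acid decarboxylase among them, were not analysed here.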

Additional observations from a re-analysis of the deposited data

Results flagged for a closer look

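For 2 of the tags named for their difference by arm, the change between 2 h and 5 h ran in opposite directions in the 2 arms. This rests on 1 array per arm and time, the interaction did not pass, and opposite directions in themselves were not tested. ARAD1C00462g changed by -1.78 with gallic acid and by 0.20 in glucose, a difference of -1.99 on the log2 scale. ARAD1A19800g changed by -1.58 with gallic acid and by 0.14 in glucose, a difference of -1.72. Groups of 2 arrays are too small to examine for a single array that stands apart.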

How the results depend on the processing

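The following values moved with the processing. The fall undone was 56.9% at offset 0, 69.6% with the 75th percentile, 32.5% with median scaling, -6.25% with spike-in scaling, 31.9% with the mean of probes, 49.6% from 15 min, and 72.6% and 24.7% for tags chosen at 0.5 and 1.5 in size. The rise undone was 110.3% with the 75th percentile and 97.1% from 15 min. The tags that went on changing numbered 33 at offset 0, 47 with the 75th percentile, 19 with spike-in scaling, 21 with the authors' table and 25 with the brightest probe. Late tags numbered 11 at offset 0 and 6 with spike-in scaling. Spike-in scaling, whose fit also had another error estimate, gave 96 higher and 1790 lower tags and 11 that differed by arm. It turned ARAD1D25300g to -0.029 and ARAD1A17402g to -0.038. The strict filter left 553 lower tags of 3502 tested, where fewer dim tags could enter. Bonferroni adjustment left 23 higher and 61 lower tags. Leaving out 1 of the 4 arrays, which leaves a single array at its time that is assumed to vary like the others, gave 483 to 535 higher and 580 to 692 lower tags. Without the arm as a replicate block 1218 tags were higher and 1059 lower, of which 1106 and 1019 were shared, and the block changed no call of a named tag. Of 519 values of named tags under these alternatives, 460 kept their side of the threshold and, where they passed it, their direction, 44 no longer passed, 13 newly passed and 2 turned direction. Medians of all tags were 0.18 with gallic acid and 0.15 in glucose at offset 0, 0.21 and -0.03 with the 75th percentile, and 0.12 and 0.13 with median scaling. Dim 5 h arrays limit falls to the background, as for the tags with few probes well above it. Except as said, the cause of these differences was not tested.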
